A study of Mus musculus with 6 samples.

Results

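Transcript levels of 10 genes for transcription factors and a regulator of the calcium-driven activation pathway were examined in CD4+ T cells from mouse spleen, cultured with MAPK13-inhibitors or with DMSO. They are the NFAT genes *Nfatc1*, *Nfatc2* and *Nfatc3*, the calcineurin regulator *Rcan1*, the early growth response genes *Egr1*, *Egr2* and *Egr3*, and the nuclear receptor genes *Nr4a1*, *Nr4a2* and *Nr4a3*. They were taken from a list of gene symbols, and all 10 were found among the 35602 genes of the count data and passed the filter on low counts that left 16269 genes. The study asked how inhibition of the kinase Mapk13 alters gene expression in these cells. RNA-seq was performed on 3 libraries per group. Cells of the DMSO group had been stimulated through CD3 and CD28 with antibodies and given the solvent DMSO, and cells of the MAPK13-inhibitors group had the same stimulation with MAPK13-IN-1. The labels of replicates 2 and 3 give the genotype as WT, the dose of the inhibitor as 17.1 µM and a medium of RPMI with fetal bovine serum, and place the addition of inhibitor or DMSO after day 1 of culture. The design text of the series instead has the inhibitor present during 72 h of stimulation, and the labels of the replicate 1 pair give neither dose, genotype nor time of addition. No label says that replicates came from separate animals or cultures, so the p-values measure the spread between these libraries, which may be technical.

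T cell receptor signalling raises intracellular calcium, which activates the phosphatase calcineurin. Calcineurin removes phosphates from NFAT proteins, which then enter the nucleus and, often together with AP-1, switch on cytokine and activation genes. The same receptor signal induces Egr factors through the MAP kinase pathway and serum response factor, and induces the orphan nuclear receptors of the Nr4a family, and NFAT, Egr and Nr4a factors have also been linked to anergy and exhaustion, states in which T cells respond poorly.

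The libraries fell into 2 batches by the kit named in their labels, and the batches were never combined. For replicates 2 and 3 the labels name poly-T beads, and these libraries carried 26874805 and 28487403 counts in DMSO and 33854760 and 32617702 counts with MAPK13-inhibitors. Levels in these 4 libraries are given as CPM, counts scaled to a common library size with edgeR's TMM factors, and differences as log2 fold changes of MAPK13-inhibitors over DMSO. The labels name a stranded mRNA kit for the replicate 1 pair, whose values are read as FPKM, a measure per length of the gene and per size of the library, and with 1 library per group and an unknown depth it gave no test.

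The labelled cell type was checked against marker genes, and the leading gene of each list is the one with the highest sum over the 4 libraries. The 8 CD4 T cell markers summed to 1603 and 1627 CPM in the DMSO libraries and to 851 and 977 CPM in the MAPK13-inhibitors libraries, with *Cd5* leading (*Cd4* and *Cd28* were above it in both inhibitor libraries), and 7 of them were lower with the inhibitor. *Cd4* itself, named here like *Cd28* after its values were seen, was at 275 and 276 CPM in DMSO and at 267 and 283 CPM with MAPK13-inhibitors, so that its groups overlapped. Markers of B cells were not near 0 in these libraries. The 10 B cell markers used here summed to 1142 and 1119 CPM in DMSO and 1311 and 1334 CPM with MAPK13-inhibitors, *Pax5* leading over the 4 libraries together, with 7 higher and 2 lower. In the replicate 1 pair the same B cell markers summed to 52.3 and 36.5 FPKM beside 1175 and 1201 FPKM for the CD4 T cell markers. Macrophage and monocyte markers, led by *Cd68*, rose from sums of 13.8 and 12.5 CPM to 42.5 and 35.6 CPM, with 5 of the 7 tested higher. Erythroid markers, led by *Hbb-bs*, went from 7.83 and 7.54 CPM to 90.02 and 64.6 CPM, with 6 of 7 tested higher. Both CD8 T cell markers, led by *Cd8b1*, were lower, with sums of 11.7 and 10.9 CPM in DMSO and 5.49 and 7.85 CPM with MAPK13-inhibitors. Markers of NK cells, led by *Eomes*, summed to between 1.43 and 2.28 CPM in every library, and the 1 gene tested did not pass. Neutrophil markers stayed between 0.221 and 0.767 CPM, with *S100a9* at 0 in all 4 libraries, and *Mpo*, the 1 gene tested, was higher. In the replicate 1 pair the CD8 T cell markers summed to 3.49 FPKM in DMSO and 8.39 FPKM with MAPK13-inhibitors, the NK cell markers to 0.644 and 4.40, the macrophage and monocyte markers to 3.01 and 9.76, the erythroid markers to 0.931 and 1.94 and the neutrophil markers to 0.533 and 0.351 FPKM. The CD8 T cell and B cell sums thus went the opposite way in the batches. So did the CD4 T cell sum, which differed little in the pair. The neutrophil sum was also opposite, at 0.233 and 0.221 CPM in DMSO and 0.564 and 0.767 CPM with MAPK13-inhibitors. The macrophage and monocyte sum and the erythroid sum were higher with the inhibitor in both batches. The part of these other cell types in the values of the 10 genes was not tested, and in bulk RNA fewer cells of a type and less RNA per cell cannot be told apart.

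The genes lie at separate loci of the mouse genome (GRCm38, GENCODE vM21). *Nfatc1* (chr18:80606205-80713071) and *Egr1* (chr18:34859823-34864984) are on chromosome 18, and *Nfatc2* (chr2:168476410-168601657) and *Nr4a2* (chr2:57106830-57124003) on chromosome 2. *Nfatc3* lies at chr8:106058840-106130537, *Egr2* at chr10:67535475-67542188 and *Egr3* at chr14:70077203-70082614. *Nr4a1* lies at chr15:101254269-101274795, *Nr4a3* at chr4:48045153-48086447 and *Rcan1* at chr16:92391953-92470867. Of the 10, *Nfatc3* alone shares exon bases with another annotated gene, *Esrp2* on the opposite strand, which had 100 and 94 counts in DMSO and 64 and 57 with MAPK13-inhibitors against at least 3562 for *Nfatc3*. Whether the counting used strand is not given in the sources used here.

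Of the 10 genes, 7 were lower and 1 was higher with MAPK13-inhibitors at an adjusted p under 0.05, and the other 2, *Nr4a2* and *Rcan1*, did not pass. Among all genes tested, 32.3% were lower and 31.5% were higher, and 63.8% passed in either direction. Passing in either direction was therefore common in these libraries, and the 8 of 10 genes that passed lie close to that background, while 7 of 10 is more than the share of all genes that were lower. Their median log2 fold change was −0.44, beside 0.01 for all genes tested. The 3 Egr genes were lower, *Nfatc1* and *Nfatc2* were lower with *Nfatc3* higher, and *Nr4a1* was lower under each of the 4 scalings tried, whereas *Nr4a3* no longer passed and *Nr4a2* changed sign with upper-quartile factors or library totals. Scaling by library totals shifted the median of all genes by 0.13 to 0.14 in log2 units.

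**Figure D1:**
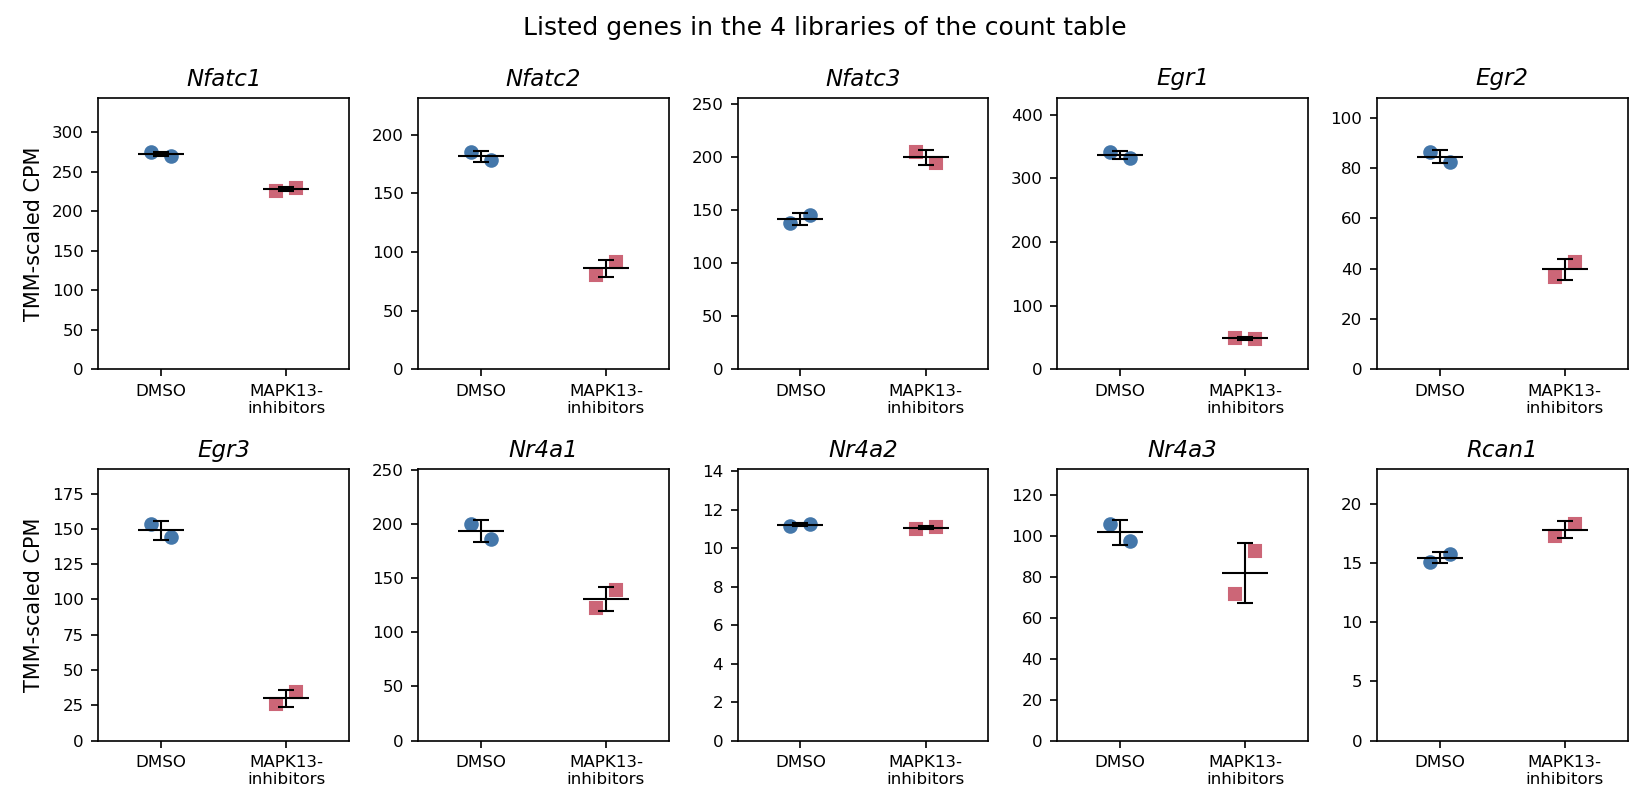
TMM-scaled CPM of each of the 10 genes in the 4 libraries of the poly-T batch, with circles for DMSO replicates 2 and 3, squares for MAPK13-inhibitors replicates 2 and 3, and a bar for the mean with its SD (n = 2 per group), each vertical axis starting at 0. *Egr1* drops from 337 to 48.5 CPM, while the points of *Nr4a2* lie between 11.02 and 11.3 CPM.

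The NFAT genes moved in different directions. *Nfatc1*, which encodes an NFAT factor with an isoform that activated T cells induce, was at 275 and 271 CPM in DMSO replicates 2 and 3 and at 226 and 229 CPM in MAPK13-inhibitors replicates 2 and 3. Both inhibitor libraries lay below both DMSO libraries, by a small margin next to that of the Egr genes. The difference was a log2 fold change of −0.26 (standard error 0.0521, 95% interval −0.37 to −0.14), with an adjusted p of 0.00137 under edgeR quasi-likelihood testing and the Benjamini-Hochberg method. It was −0.13, still past the threshold, when libraries were scaled by their totals. Counts per gene do not separate the isoforms of *Nfatc1*.

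*Nfatc2* encodes the NFAT factor that is already abundant in resting T cells. It stood at 185 and 178 CPM in the DMSO libraries and 80.6 and 91.3 CPM in the MAPK13-inhibitors libraries. The groups were far apart relative to their spread, at 181 ± 4.90 and 85.9 ± 7.54 CPM (SD, n = 2 per group). *Nfatc2* fell 2.11-fold, a log2 fold change of −1.08 with a standard error of 0.0705 (adjusted p = 6.46e-07, edgeR quasi-likelihood, Benjamini-Hochberg). *Nfatc3*, whose product shares the calcineurin-regulated domain of the family, took the opposite course, with 138 and 146 CPM in DMSO and 205 and 195 CPM with MAPK13-inhibitors. Again the libraries of the groups did not overlap. The rise of *Nfatc3* was 1.41-fold, a log2 fold change of 0.49 with a standard error of 0.0594 (adjusted p = 4.16e-05 by the same route, edgeR quasi-likelihood and Benjamini-Hochberg). A log2 fold change below that of *Nfatc2* was found in 9.45% of the genes tested, and one below that of *Nfatc3* in 73.1%.

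*Rcan1* encodes a protein that binds calcineurin and, when abundant, inhibits it, and its transcription from an internal start is itself driven by NFAT. Its level was low beside most of the 10 genes, although 51.7% of all genes tested had a lower mean level. *Rcan1* was at 15.1 and 15.8 CPM in DMSO and at 17.3 and 18.4 CPM with MAPK13-inhibitors. Both inhibitor libraries lay above both DMSO libraries, but the difference did not pass the test. The log2 fold change was 0.21 with a 95% interval from −0.02 to 0.44 and an adjusted p of 0.103 (edgeR quasi-likelihood, Benjamini-Hochberg). *Rcan1* did pass when libraries were scaled by upper-quartile factors, at 0.29, or by their totals, at 0.33. These values rest on 390 to 622 counts per library.

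The Egr genes all fell, and *Egr1* and *Egr3* held the largest changes of the 10, while *Egr2* fell about as much as *Nfatc2*. *Egr1*, an immediate early zinc finger factor induced within minutes of receptor signalling, was at 341 and 332 CPM in DMSO and at 49.8 and 47.1 CPM with MAPK13-inhibitors. Its replicates lay close together in each group, at 337 ± 6.07 and 48.5 ± 1.92 CPM (SD, n = 2 per group), and nothing overlapped. *Egr1* was 6.94-fold lower (95% interval 6.32 to 7.63), a log2 fold change of −2.80 with a standard error of 0.0613 and an adjusted p of 1.61e-09 under edgeR quasi-likelihood testing and the Benjamini-Hochberg method. Ranked from the most negative log2 fold change, *Egr1* was number 149 of the 16269 genes tested.

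*Egr2* and *Egr3* encode related factors that NFAT induces and that restrain T cell activation. *Egr2* was at 86.2 and 82.5 CPM in the DMSO libraries and at 36.7 and 42.7 CPM in the MAPK13-inhibitors libraries. *Egr3* was at 154 and 144 CPM in DMSO and at 25.9 and 34.4 CPM with MAPK13-inhibitors. For both genes every inhibitor library lay below every DMSO library, and replicate 3 of the inhibitor group was the higher of its pair. The log2 fold change of *Egr2* was −1.09 (standard error 0.0831), a 2.13-fold fall with an adjusted p of 1.75e-06 under edgeR quasi-likelihood testing and the Benjamini-Hochberg method. That of *Egr3* was −2.31 (standard error 0.111), a 4.96-fold fall with an adjusted p of 1.08e-07 by the same route (edgeR quasi-likelihood, Benjamini-Hochberg). *Egr3* ranked as number 270 from the most negative value. The 95% intervals of *Egr1* (−2.93 to −2.66), *Egr3* (−2.56 to −2.06) and *Egr2* (−1.27 to −0.90) did not overlap, although the differences between these genes were not tested.

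The Nr4a genes differed among themselves, and *Nr4a2* did not pass. *Nr4a1*, which encodes Nur77 and is widely used as a reporter of receptor signalling, was at 201 and 187 CPM in DMSO and at 123 and 139 CPM with MAPK13-inhibitors. Its groups were separate, at 194 ± 9.98 and 131 ± 11.5 CPM (SD, n = 2 per group). *Nr4a1* fell 1.48-fold, a log2 fold change of −0.57 with a standard error of 0.0717 (adjusted p of 6.04e-05 under edgeR quasi-likelihood testing and the Benjamini-Hochberg method).

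*Nr4a3*, which encodes Nor1, was at 106 and 97.4 CPM in DMSO and at 71.6 and 92.3 CPM with MAPK13-inhibitors. Replicate 3 of the inhibitor group lay just under the lower DMSO library, and the SD of the inhibitor group was 14.6 CPM around a mean of 82.0 CPM. The log2 fold change was −0.31 (standard error 0.104, 95% interval −0.54 to −0.08), and *Nr4a3* passed with an adjusted p of 0.023 under edgeR quasi-likelihood testing and the Benjamini-Hochberg method. A single library weighed on this value, which was −0.14 without MAPK13-inhibitors replicate 2 and −0.51 without MAPK13-inhibitors replicate 3, past the threshold both times. It did not pass when libraries were scaled by upper-quartile factors or by their totals. *Nr4a2*, which encodes Nurr1, was the least abundant of the family, with 11.2 and 11.3 CPM in DMSO and 11.02 and 11.1 CPM with MAPK13-inhibitors. The DMSO libraries lay above the inhibitor libraries by so little that their levels were close to equal. The log2 fold change of *Nr4a2* was −0.02 with a 95% interval from −0.28 to 0.24, and it did not pass (adjusted p = 0.889, edgeR quasi-likelihood, Benjamini-Hochberg). That interval covers changes from 1.21-fold lower to 1.18-fold higher.

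Levels of different genes can be set side by side only per length. Dividing the CPM of the count libraries by the length of all annotated exons gave CPM per kb. In DMSO *Egr1* was the highest, at 75.1 ± 1.35 CPM per kb (SD, n = 2), followed by *Nr4a1* at 55.2 ± 2.84, *Nfatc1* at 36.5 ± 0.401 and *Egr3* at 33.9 ± 1.52 CPM per kb. *Egr2* came next at 24.8 CPM per kb, then *Nfatc2* at 17.2, *Nr4a3* at 17.0, *Nfatc3* at 12.1, *Rcan1* at 5.01 and *Nr4a2* at 2.77 CPM per kb. In this order *Nfatc2* and *Nr4a3* overlapped between libraries, and no other neighbours did. With MAPK13-inhibitors *Nr4a1* was the highest, at 37.3 ± 3.29 CPM per kb, followed by *Nfatc1* at 30.5 ± 0.319 and *Nfatc3* at 17.1 ± 0.592. *Nr4a3* at 13.7, *Egr2* at 11.7, *Egr1* at 10.8, *Nfatc2* at 8.13 and *Egr3* at 6.83 CPM per kb came after them, with *Rcan1* at 5.78 and *Nr4a2* at 2.73 CPM per kb last. Here *Nr4a3* overlapped *Egr2*, *Egr2* overlapped *Egr1*, *Nfatc2* overlapped *Egr3*, and *Egr3* overlapped *Rcan1*. *Egr1* thus went from rank 1 to rank 6, and *Nfatc3* from rank 8 to rank 3, above *Nfatc2*. These orders depend on the length used, which takes in all annotated exons and not only those of the transcripts expressed. The FPKM of DMSO replicate 1 gave another order, with *Nfatc3* (25.3) already above *Nfatc2* (20.4) and *Egr2* (28.3) above *Egr3* (9.63).

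In the replicate 1 pair the picture differed for most of the genes. Of the 10 genes, 3 were lower and 7 were higher with MAPK13-inhibitors, while of all 10378 tested genes that reached 1 FPKM in each library 4735 were lower and 5643 were higher, with a median log2 ratio of FPKM + 1 of 0.05. Only *Egr1* and *Nfatc2* were lower in both batches. *Egr1* went from 56.1 FPKM in DMSO replicate 1 to 37.3 FPKM in MAPK13-inhibitors replicate 1, a log2 ratio of −0.58. *Nfatc2* went from 20.4 to 19.3 FPKM, a log2 ratio of −0.07, and *Nfatc3* from 25.3 to 24.7 FPKM, a log2 ratio of −0.03. These NFAT values hardly differed between the 2 libraries.

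The other 7 genes had the higher FPKM with the inhibitor. *Nfatc1* was at 29.2 FPKM in DMSO and 41.0 FPKM with MAPK13-inhibitors, *Egr2* at 28.3 and 39.4 FPKM, and *Egr3* at 9.63 and 12.2 FPKM. *Nr4a1* was at 29.5 and 35.9 FPKM and *Nr4a3* at 9.49 and 13.5 FPKM. These 5 genes were called lower in the count libraries, so their direction was opposite in the pair. *Nr4a2* had the largest ratio of the 10, with 2.81 FPKM in DMSO and 11.3 FPKM with MAPK13-inhibitors, a log2 ratio of 1.69. *Rcan1* was at 4.39 and 5.54 FPKM, a log2 ratio of 0.28. In order of FPKM, *Egr1* led in DMSO replicate 1 and *Nfatc1* in MAPK13-inhibitors replicate 1, and *Nr4a2* and *Rcan1* were the lowest of the 10 in each. With 1 library per group there is no spread against which to judge these orders or changes. Kit, processing and replicate number all differed between the batches and cannot be told apart.

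**Figure D2:**
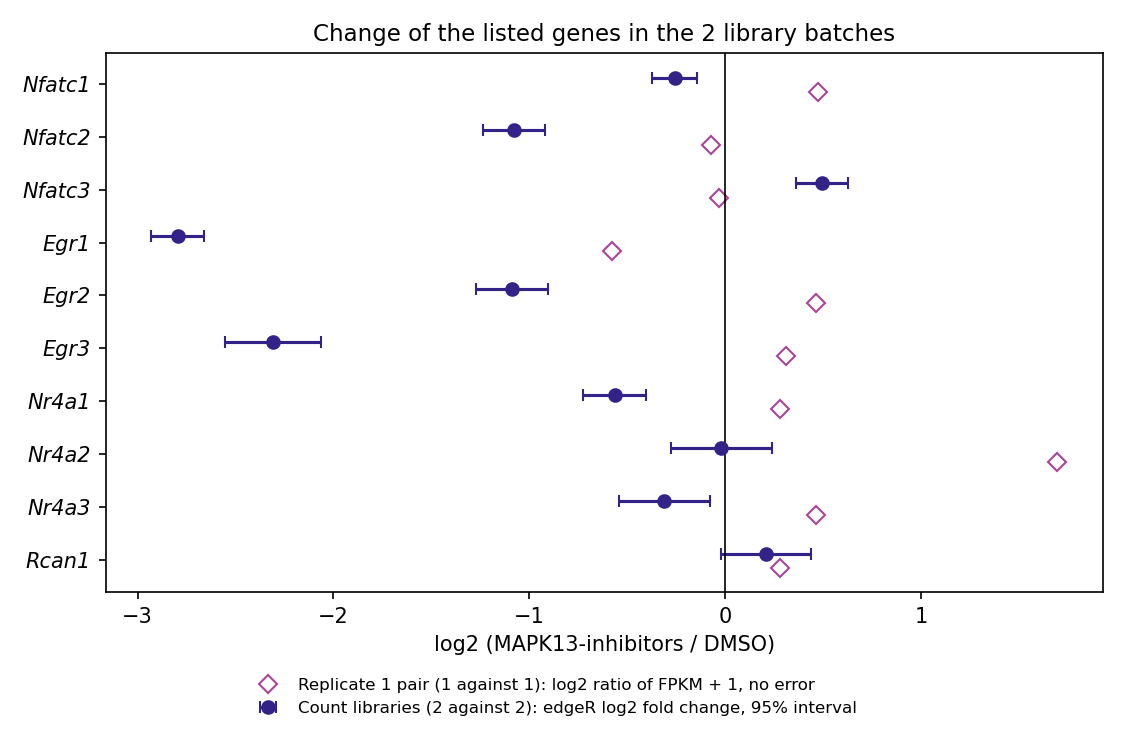
Log2 difference of MAPK13-inhibitors against DMSO for the 10 genes, with filled circles and bars for the edgeR log2 fold change and 95% interval of the count libraries (2 against 2) and open diamonds for the log2 ratio of FPKM + 1 in the replicate 1 pair (1 against 1, no error). *Egr1* lies left of 0 in both batches, at −2.80 and −0.58, while *Egr3* lies at −2.31 and 0.31.

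Genes around the NFAT factors were counted by list, in the same test, where 32.3% of all genes were lower and 31.5% were higher. Of 5 tested genes for the other NFAT factors and the calcineurin subunits, 2 were lower and 3 were higher (median 0.36). *Ppp3ca*, the gene of a catalytic subunit, rose from 48.3 and 47.3 CPM to 88.4 and 80.8 CPM (log2 fold change 0.83, standard error 0.0723), and *Nfat5*, an NFAT relative that does not depend on calcineurin, rose by a log2 fold change of 0.43. *Ppp3cc*, the gene of another catalytic subunit, fell by 0.57 on the log2 scale. The remaining called genes, *Ppp3cb* (lower) and *Ppp3r1* (higher), were named after their values were seen. Among 7 tested calcineurin regulators and calmodulin genes, 2 were lower and the other 5 did not pass (median −0.08), although with library totals 2 of them were higher, *Akap5* (log2 fold change 0.615) being 1 of these. *Rcan3*, a relative of *Rcan1*, fell from 98.2 and 101 CPM to 48.5 and 58.1 CPM (log2 fold change −0.90, standard error 0.0858), and *Cabin1*, whose product binds and inhibits calcineurin, fell by 0.30. Of 8 kinase genes listed for keeping NFAT out of the nucleus, 2 were lower and 2 were higher (25% each, median 0.03), both under the shares of all genes. In this list 4 were higher without MAPK13-inhibitors replicate 3, with upper-quartile factors, with library totals and with at least 10 counts in every library. *Dyrk2* (0.96) and *Lrrk2* (0.52) had higher levels and *Csnk1a1* (−0.33) had lower levels by log2 fold change, as had *Csnk1e*, named after its values were seen.

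Textbook targets of NFAT in activated T cells were mostly lower in the count libraries. Of 14 tested, 12 passed as lower (85.7%, beside 32.3% of all genes), the other 2 did not pass, and the median was −0.92. A fall of this extent was not particular to these targets, since 87.5% of the 8 CD4 T cell markers were lower too, with a median of −1.27. *Il4* fell from 9.31 and 8.42 CPM to 0.310 and 0.354 CPM (log2 fold change −4.72, standard error 0.239), on 11 and 12 counts in the inhibitor libraries. *Il13* fell by 4.62 and *Il2ra*, the gene of the high-affinity receptor chain for IL-2, by 1.27 on the log2 scale. *Il2* was at 46.3 and 56.8 CPM in DMSO and 11.9 and 17.9 CPM with MAPK13-inhibitors (log2 fold change −1.80, standard error 0.165). *Ifng* was at 4.11 and 5.33 CPM in DMSO and 2.09 and 2.54 CPM with MAPK13-inhibitors (log2 fold change −1.03, standard error 0.218). In the replicate 1 pair, in contrast, 10 of the 13 target genes that reached 1 FPKM in both libraries were higher with the inhibitor, beside 5643 of 10378 for all genes. *Il4* (28.9 and 13.1 FPKM), *Il2ra* (384 and 237 FPKM) and *Irf4*, which was named after its values were seen, were lower there as in the count libraries. *Il2*, on the other hand, went from 6.04 to 71.1 FPKM and *Ifng* from 16.4 to 92.6 FPKM. Of the NFAT and Egr members, *Nfatc1*, *Egr2* and *Egr3* were also higher in that pair, while *Egr1* (log2 ratio −0.58), *Nfatc2* (−0.07) and *Nfatc3* (−0.03) were lower.

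The 9 tested partners and upstream factors of the Egr family had a median log2 fold change of −0.18, and the 3 with the smallest p-values were lower. *Nab2*, an Egr target whose product binds Egr proteins and represses them, fell from 110 and 110 CPM to 19.6 and 22.3 CPM (log2 fold change −2.39, standard error 0.0804), a fall of a size between those of *Egr1* and *Egr2*. *Egr4*, the remaining Egr gene, fell by 2.70 from 9.42 and 8.49 CPM, and *Elk3*, an ETS partner of serum response factor, by 0.39 on the log2 scale. Both *Nab2* (26.97 and 24.0 FPKM, a log2 ratio of only −0.16) and *Egr4* (3.11 and 1.09 FPKM) were also lower in the replicate 1 pair, as *Egr1* was. *Elk3* (log2 ratio 0.17), *Egr2* (0.46) and *Egr3* (0.31) were higher there.

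For the Nr4a family, 3 of 7 tested partners and upstream factors were lower (42.9%) and 2 were higher (28.6%), with a median of −0.14. On 7 genes these shares lie close to the 32.3% lower and 31.5% higher of all genes. *Rxrb*, which encodes a retinoid X receptor, a class of dimer partners of Nur77 and Nurr1, fell from 85.7 and 96.1 CPM to 37.1 and 45.1 CPM (log2 fold change −1.15, standard error 0.0971). Of the MEF2 genes, whose products drive *Nr4a1* transcription, *Mef2b* fell by 1.77 and *Mef2c* rose by 0.75 on the log2 scale. *Hdac7* (lower) and *Mef2d* (higher) were named after their values were seen.

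Genes linked to anergy and exhaustion were taken next. The 14 anergy genes tied to Egr and NFAT had a median log2 fold change of −0.08. *Nrn1* (−1.28) and *Crtam* (−1.61) had the lower and *Ndrg1* (0.64) the higher levels by log2 fold change among the 3 with the smallest p-values. Of 11 exhaustion genes linked to Nr4a factors, 3 were lower (27.3%) and 2 were higher (18.2%), both under the shares of all genes, and the median was −0.15. The lower genes were *Pdcd1* with a log2 fold change of −2.14, *Ctla4* with −1.62 and *Lag3* with −1.32. The higher genes were *Cd244a* and *Entpd1*, named after their values were seen. Without DMSO replicate 2 or with DESeq2, 1 gene of this list was higher, and with upper-quartile factors or library totals 4 were. In the replicate 1 pair all 9 exhaustion genes that reached 1 FPKM in both libraries were higher with the inhibitor, beside 5643 of 10378 for all genes, and *Nr4a1*, *Nr4a2* and *Nr4a3* were higher too.

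Other immediate early genes did not all move with *Egr1*. Of 19 tested, 11 were lower (57.9%) and 5 were higher (26.3%), beside 32.3% and 31.5% of all genes, and the median was −0.22. In the replicate 1 pair, in contrast, 4 were lower and 14 were higher of the 18 that reached 1 FPKM in both libraries. Their median log2 ratio was 0.80, and of all 10378 genes 4735 were lower and 5643 were higher. *Egr1* was lower in both batches. *Jund* fell by 1.51, *Ier2* by 1.12 and *Myc* by 1.00 on the log2 scale. *Ier3* rose from 18.3 and 16.4 CPM to 89.7 and 91.4 CPM (log2 fold change 2.38, standard error 0.0816). *Jun*, *Zfp36*, *Fosl2* and *Fosb*, named after their values were seen, were the other higher genes. *Fos*, induced through the same serum response elements as *Egr1*, was at 4.93 and 6.43 CPM in DMSO and at 5.69 and 5.78 CPM with MAPK13-inhibitors, within the DMSO range, and did not pass (log2 fold change 0.01, standard error 0.173).

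The genes most like the leading member of each family were found by Euclidean distance over 6 values, the centred log2 CPM of the 4 count libraries and the centred log2(FPKM + 1) of the replicate 1 pair. Nearest to *Nfatc1*, among 3410 genes of similar level, were *Cldnd1* (distance 0.0653) and *Tsc2* (0.0714). *Egr1*, among 4289 genes, had *Lta* (0.328) and *Neat1* (0.427) as its nearest, at longer distances. *Nr4a1*, among 4812 genes, had *Cnpy3* (0.0481) and *Trim14* (0.0688).

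Since most of the 10 genes moved, the letters ahead of their starts were searched for motifs. RefSeq (GRCm38.p6) windows were matched for 7 of the 10 genes, all but *Egr1*, *Egr3* and *Nfatc1*, in 14 windows, and the search covered both strands of the 250 bases before each start. The letters GGAAA, the NFAT core, were found in 9 of the 14 windows, from *Egr2*, *Nfatc2*, *Nfatc3*, *Nr4a2* and *Rcan1*, some of them overlapping, and in 55.6% of all 32851 windows. GCGNGGGCG, the Egr motif, was found in 2 of the 14, for *Nr4a1* and *Nr4a2*, and in 4.70% of all windows. The CArG box, to which serum response factor binds, was found in 4 of the 14, all of them windows of *Egr2* and 3 of them overlapping with the same match, and in 1.47% of all windows. TGANTCA (AP-1) and TGACGTCA (CRE) were each found in 1 of the 14, for *Rcan1*, and in 6.75% and 1.55% of all windows. AAAGGTCA (the NBRE of Nr4a factors) and the MEF2 site were in none of the 14 windows, against 1.34% and 0.508% of all windows, which says only that these letters are not there. A match is a description of letters and not a bound site.

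The windows below carry more than the NFAT core alone, or lie ahead of the NFAT gene that fell most, and hold no annotated exon base. Capitals mark matches, and each sequence runs 5′ to 3′ on the strand of its gene. The windows of *Egr2* (plus strand, inside its gene in an intron of longer transcripts) are chr10:67537316-67537565 and chr10:67537619-67537868. In the former a CArG box overlaps a GGAAA match by 2 bases.
Egr2 distal window: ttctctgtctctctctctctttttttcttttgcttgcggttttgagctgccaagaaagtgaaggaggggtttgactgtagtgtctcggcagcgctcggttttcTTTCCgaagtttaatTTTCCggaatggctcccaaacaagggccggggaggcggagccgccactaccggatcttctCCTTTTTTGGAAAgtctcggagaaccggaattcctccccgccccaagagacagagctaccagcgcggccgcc
Egr2 proximal window: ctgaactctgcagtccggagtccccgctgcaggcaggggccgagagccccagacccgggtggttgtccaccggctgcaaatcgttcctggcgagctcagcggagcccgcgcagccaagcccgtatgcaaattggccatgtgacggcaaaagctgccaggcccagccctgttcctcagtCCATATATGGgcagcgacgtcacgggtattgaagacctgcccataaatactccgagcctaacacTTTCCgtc
The window of *Nfatc2* (minus strand, ahead of the gene) is chr2:168601658-168601907 and holds 3 GGAAA matches.
Nfatc2 window: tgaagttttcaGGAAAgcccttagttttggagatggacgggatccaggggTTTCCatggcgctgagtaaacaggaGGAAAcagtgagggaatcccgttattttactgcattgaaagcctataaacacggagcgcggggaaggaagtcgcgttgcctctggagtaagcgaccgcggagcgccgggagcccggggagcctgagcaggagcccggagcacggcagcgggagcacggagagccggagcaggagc
The windows of *Nr4a1* (plus strand, chr15:101266596-101266845, in an intron of a longer transcript) and *Nr4a2* (minus strand, chr2:57124004-57124253, ahead of the gene) each hold the Egr motif.
Nr4a1 window: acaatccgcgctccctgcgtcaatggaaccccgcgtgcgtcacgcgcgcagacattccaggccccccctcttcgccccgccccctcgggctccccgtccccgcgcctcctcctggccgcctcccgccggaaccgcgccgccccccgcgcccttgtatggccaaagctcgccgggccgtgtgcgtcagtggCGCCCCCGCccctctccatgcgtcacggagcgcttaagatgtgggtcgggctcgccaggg
Nr4a2 window: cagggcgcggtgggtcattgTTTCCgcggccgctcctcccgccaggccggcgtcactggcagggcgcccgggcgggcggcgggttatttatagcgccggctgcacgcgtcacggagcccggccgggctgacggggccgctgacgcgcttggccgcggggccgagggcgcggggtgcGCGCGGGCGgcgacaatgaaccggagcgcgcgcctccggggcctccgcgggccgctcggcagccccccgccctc
The internal window of *Rcan1* (minus strand, chr16:92400079-92400328, in an intron of longer transcripts) holds 3 GGAAA matches, a CRE and an AP-1 match.
Rcan1 internal window: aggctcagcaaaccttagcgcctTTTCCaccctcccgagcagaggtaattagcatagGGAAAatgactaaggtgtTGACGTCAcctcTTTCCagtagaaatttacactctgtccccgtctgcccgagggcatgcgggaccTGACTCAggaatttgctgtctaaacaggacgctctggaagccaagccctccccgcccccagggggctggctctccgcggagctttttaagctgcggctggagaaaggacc
Of the genes with a match, *Egr2*, *Nfatc2* and *Nr4a1* fell in the count libraries, *Nfatc3* rose, and *Nr4a2* and *Rcan1* did not pass the test. *Nr4a3*, with no match in its window, was lower there. In the replicate 1 pair *Egr2* and *Nr4a1* were higher with the inhibitor. Any link between these letters and the levels was not tested.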

How the data were processed

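The count table deposited by the authors holds whole-number counts per gene for DMSO and MAPK13-inhibitors replicates 2 and 3, and the submitters' processing notes name fastp 0.21.0, HISAT2 2.1.0, StringTie 2.1.5, DESeq2 1.30.1 and build mm10. The deposited replicate 1 pair holds values read as FPKM, a unit inferred from the values since the authors do not name it, with FastQC and HISAT2 in the notes. Libraries of 26874805 to 33854760 counts gave a common biological coefficient of variation of 0.0659. Counts were filtered with filterByExpr (minimum count 10, minimum total 15), scaled by TMM and tested by the edgeR 4.0.16 quasi-likelihood test in R 4.3.3 (2 libraries against 2, Benjamini-Hochberg adjustment over all 16269 genes, threshold 0.05). The procedure was run on simulated counts in which 100 of 16269 genes changed 2-fold and 100 changed 4-fold. These counts had the same spread in both groups and far fewer changed genes than passed here. They therefore do not show how scaling or error rates behave in the real libraries. In the replicate 1 pair, log2 ratios used a pseudocount of 1. Every sample column was used. Alternatives were other scalings (RLE, upper-quartile, library totals), other count filters, a replicate block, DESeq2 1.42.0, leaving out each library, a limit of 1 on the absolute log2 fold change, and, for the pair, a pseudocount of 0.1, subtraction of the median and a minimum of 1 FPKM. By the rule for naming, named genes are the 10 members, at most 3 genes per list with the smallest p-values, *Il2*, *Ifng*, *Nab2*, *Cabin1*, *Ppp3ca*, *Fos* and *Myc* whatever their values, each marker list's most abundant gene and genes at 0, and the 2 nearest genes for the most abundant member of each family (a mean log2 CPM within 2 of it, 0.5 added before the logarithm). Further genes, named where a count of 5 or fewer or a single value called for it, are stated in the text as chosen after their values were seen. The counts of lower and of higher genes in the Egr partner and anergy lists are not reported. The members and lists were chosen with earlier results of these data known. Positions are from GENCODE vM21 and promoters from RefSeq (GRCm38.p6).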

Additional observations from a re-analysis of the deposited data

Results flagged for a closer look

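Of 37 members and list genes chosen by the rule for naming that passed the test in the count libraries, 20 had the opposite direction in the replicate 1 pair, 6 of them among the 8 members that passed. By the same criterion 33.8% of all 10138 genes that passed and had a ratio in the pair were opposite, and the genes named by the rule were mostly picked by their small p-values. With the list genes named after their values were seen, it was 22 of 49, the added ones being *Csnk1e* (0.072 in the pair, lower in the count libraries) and *Mef2d* (−0.033, higher there). The difference between the batches was not tested, since the pair has 1 library per group. For the members, the log2 ratio of FPKM + 1 in the pair was 0.48 for *Nfatc1*, 0.46 for *Egr2*, 0.31 for *Egr3*, 0.28 for *Nr4a1* and 0.46 for *Nr4a3*, all lower in the count libraries, and −0.033 for *Nfatc3*, higher there. The ratio of *Nfatc3* lies close to 0. Among regulators and partners, *Cabin1* (0.41), *Csnk1a1* (0.084) and *Elk3* (0.17) were higher in the pair and lower in the count libraries, and *Mef2c* (−0.21) was the reverse. *Mef2c* was at only 0.498 FPKM in DMSO and 0.295 FPKM with MAPK13-inhibitors in the pair, under the minimum of 1 FPKM. Among targets and genes linked to anergy and exhaustion, the log2 ratio in the pair was 3.36 for *Il2*, 1.23 for *Il13*, 2.43 for *Ifng*, 1.73 for *Crtam*, 1.24 for *Nrn1*, 0.84 for *Pdcd1*, 1.40 for *Lag3* and 0.39 for *Ctla4*, and all of these fell in the count libraries. The immediate early genes *Jund* (0.14) and *Myc* (0.42) were also higher in the pair and lower in the count libraries.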

How the results depend on the processing

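Of 120 log2 fold changes of the 10 genes under alternatives, 109 kept their direction and side of the threshold. *Nr4a2* changed sign with upper-quartile factors (0.060), library totals (0.10) and at least 10 counts in every library (0.025), never passing. *Nr4a3* lost its call with upper-quartile factors (−0.23) and library totals (−0.19), and *Rcan1* gained one (0.29 and 0.33), so that 2 members were higher and 6 lower under each. For these the cause was not tested. Requiring an absolute log2 fold change over 1 removes by construction *Nfatc1* (−0.26), *Nfatc3* (0.49), *Nr4a1* (−0.57) and *Nr4a3* (−0.31), leaving 4 members lower and 0 higher, where 1686 genes were lower and 2113 higher in all. Leaving out each library in turn gave log2 fold changes of −0.28 to −0.25 for *Nfatc1*, −1.18 to −0.99 for *Nfatc2*, 0.44 to 0.52 for *Nfatc3*, −2.84 to −2.76 for *Egr1*, −1.21 to −0.98 for *Egr2*, −2.53 to −2.12 for *Egr3*, −0.66 to −0.48 for *Nr4a1*, −0.04 to −0.01 for *Nr4a2*, −0.51 to −0.14 for *Nr4a3* (lowest and highest without MAPK13-inhibitors replicates 3 and 2) and 0.16 to 0.25 for *Rcan1*, and the remaining lone library is assumed to vary like the other group. *Fos* ranged from −0.18 to 0.21 and did not pass. With a replicate block 7 members were lower and 1 higher, with 5384 and 5261 genes in all, and replicate differences did not correlate between the groups (−0.00641). DESeq2 also gave 7 and 1. In the pair, a pseudocount of 0.1 raised the ratio of *Nr4a2* to 1.97. Replicate counts differed by more than sampling alone gives (mean chi-square per gene 2.94 in DMSO and 8.82 with MAPK13-inhibitors), and 2 libraries per group limit what small changes can pass.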
